A study of Cardamine hirsuta with 12 samples.

Results

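The regions described here are 1516 stretches of *Cardamine hirsuta* chromatin that an anti-GFP antibody recovered reproducibly from untagged wild-type shoots and that had no counterpart in the reproducible list of plants carrying a tagged transcription factor. They were chosen by comparing 2 deposited lists of reproducible peaks, the ChCUC1:V list with 15299 peaks and the Oxford (Ox) list with 11748. Of the 10221 Ox peaks on Chr1 to Chr8, the 1516 that shared no base with any ChCUC1:V peak (14.8%) were taken and are called Ox-list-only regions. Together the 2 lists hold 27047 peaks. A further 236 Ox peaks without a ChCUC1:V partner lie on unplaced scaffolds and were left out.

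The study compared plants expressing ChCUC1 fused to the fluorescent protein Venus from the upstream sequences of *ChCUC1* (ChCUC1:V) with Ox plants, the strain that the labels give for every library. Shoots of soil-grown, short-day plants without roots or mature leaves were collected 14 days after germination, with about 20 g per replicate, and were fixed for 20 min in cold (4 °C) formaldehyde at 1%. The series holds 3 immunoprecipitation (IP) libraries and 3 input libraries for each genotype, and the 6 IP libraries each have a peak list of their own. The study calls its ChIP-seq replicates biological, the sources used here do not name the transgenic line behind the ChCUC1:V libraries, and whole shoots also contain many cells in which the *ChCUC1* promoter is not active. No label ties the lists named case and control to a genotype. They were taken as ChCUC1:V and Ox because the series title gives ChCUC1 binding as its aim.

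CUP-SHAPED COTYLEDON1 (CUC1) is a NAC-domain transcription factor of organ boundaries, and in *C. hirsuta* it also acts at the leaf margin, where leaflets arise. An antibody against GFP recognises Venus as well, so in ChCUC1:V plants it can pull down DNA bound by the fusion protein. Ox plants contain no Venus, and what the antibody recovers from them is the background of the method. Such mock precipitations are known to recover DNA unevenly, for instance at highly transcribed loci in budding yeast, which is why they serve as a control for peak lists.

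The name Ox-list-only holds for the reproducible lists and not for the single libraries. Each IP library has a relaxed list, in which the authors kept peaks down to a p of 0.01. A relaxed ChCUC1:V peak met 1401 of the 1516 regions (92.4%) in at least 1 replicate, where 98.8% of all Ox peaks on the chromosomes were met. The relaxed lists held 48631, 25083 and 21353 peaks in ChCUC1:V replicates 1, 2 and 3, against 30996, 38180 and 41490 in Ox replicates 1, 2 and 3. Their smallest peaks measured 160, 410 and 525 bp in the ChCUC1:V libraries, against 325, 170 and 200 bp in the Ox libraries. List length and smallest width thus differed within each genotype too. Each library is therefore also described with its 21353 strongest peaks, the length of the shortest list. Since the regions were chosen from lists made with these same libraries, all values are given as a description and no test was run.

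Ox-list-only regions were narrow. Their median width was 724.5 bp, with 433 and 1169 bp as the 25th and 75th percentiles, against a median of 1510 bp for the 8705 other Ox peaks on the chromosomes. Regions of up to 500 bp made up 32.2% (488 regions), compared with 6.38% of the other Ox peaks. Those over 2000 bp made up 7.45% (113 regions), compared with 33.1%. The narrowest measured 232 bp and the widest 7501 bp. No ChCUC1:V peak was narrower than 365 bp, a limit that 226 Ox-list-only regions (14.9%) fell short of, as did 153 other Ox peaks (1.76%). A wide peak has more chances to share a base with another, so width bears on the choice of the regions. In bases, the 1516 regions covered 1413 kb, which was 7.83% of the length of all Ox peaks on the chromosomes.

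**Figure D1:**
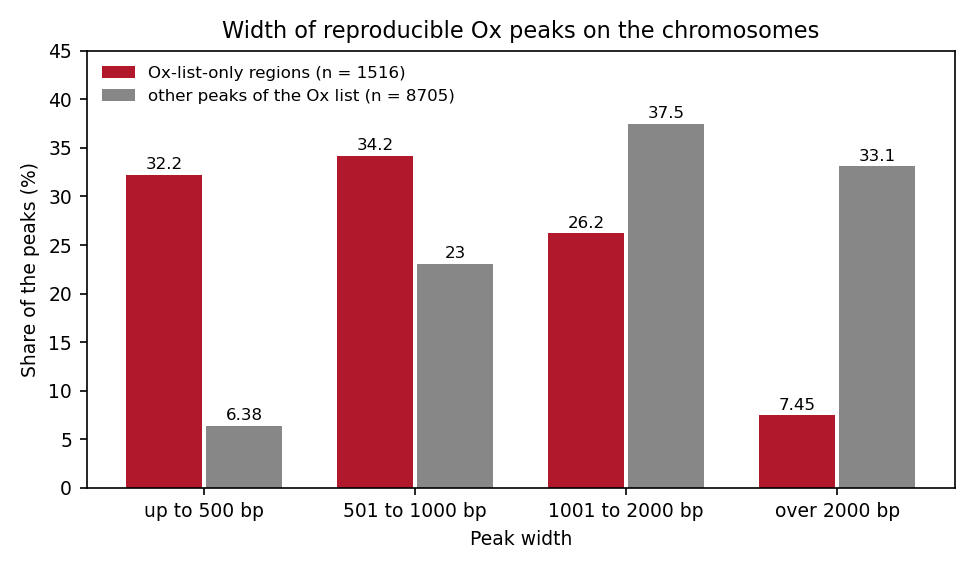
Share of reproducible Ox peaks in 4 width classes (x axis, bp), as percent of the set (y axis), for the 1516 Ox-list-only regions in red and the 8705 other Ox peaks on the chromosomes in grey. The class of up to 500 bp holds 32.2% of the Ox-list-only regions and 6.38% of the others.

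The Ox-list-only regions also sat in the lower part of the Ox list by strength. The fold given for each peak is the enrichment of IP over control at the summit, on a linear scale. It had a median of 2.29 among Ox-list-only regions (lowest 1.38, highest 3.01), against 2.40 among the other Ox peaks (1.36 to 4.10). The strongest Ox-list-only region ranked 322 by fold among the 10221. Cut by fold into 4 equal parts, the Ox list held 150 of them (9.89%) in its highest part and 529 (34.9%) in its lowest. The median −log10 p was 13.8, against 16.2 for the others. Reproducibility was graded by the irreproducible discovery rate (IDR), with a scaled score of 540 at an IDR of 0.05 and a maximum of 1000. The median score was 632.5 in Ox-list-only regions and 779 in the other Ox peaks. The maximum was reached by 52 regions (3.43%), against 2011 of the others (23.1%), and an IDR of 0.01 or less by 192 (12.7%), against 3676 (42.2%). Fold and width were not ordered together. By width class, with bounds at 500, 1000 and 2000 bp, the median folds were 2.34, 2.28, 2.25 and 2.30 with growing width.

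The rule draws its line at a single shared base, and folds on both sides of that line overlapped. The nearest on the inner side lay on Chr2 from 5220278 to 5221925, 7 bp from a ChCUC1:V peak, with 2.15-fold enrichment. It was followed by a region on Chr4 from 4793547 to 4794139 at 8 bp (1.84-fold) and one on Chr3 from 15949159 to 15949929 at 14 bp (2.24-fold). The Ox peaks that shared the fewest bases, and so were not taken, lay on Chr4 from 7944042 to 7944429 with 9 shared bp (1.45-fold), on Chr6 from 10615361 to 10616016 with 10 bp (2.31-fold) and on Chr8 from 5410389 to 5410640 with 28 bp (1.64-fold). Few regions were this close to the line, since 1.25% lay within 100 bp of a ChCUC1:V peak and 24.7% within 500 bp. The rule itself mattered more. With an IDR of 0.01 or less required in both lists, 473 Ox peaks had no partner, and these include Ox peaks outside the 1516 whose ChCUC1:V partner was removed by that limit. By summits, 4702 Ox peaks had no ChCUC1:V summit within 250 bp of their own.

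Ox-list-only regions lay in the neighbourhood of other peaks. The median distance to the nearest reproducible ChCUC1:V peak was 1238 bp, with 507 and 3175 bp as the 25th and 75th percentiles, and 676 regions (44.6%) lay within 1 kb. That nearest peak was one shared with Ox for 987 regions (65.1%), while 58.4% of all ChCUC1:V peaks on the chromosomes were shared. The nearest other Ox peak lay at a median of 2217 bp. Ox-list-only regions were farther from each other, at a median of 16118 bp, but 202 of them (13.3%) had a further one within 1 kb. The sets differ in size, with 13605 ChCUC1:V peaks on the chromosomes, 8705 other Ox peaks and 1516 Ox-list-only regions. A larger set favours shorter distances, and the distances were not adjusted for it. At the other end, 113 regions (7.45%) lay more than 10 kb from any ChCUC1:V peak, with 9 to 21 on each chromosome. They were 642 bp wide in the median, against 731 bp among the rest, and their median fold was 2.26, against 2.29. The farthest, singled out after its values were seen, lay on Chr1 from 6241434 to 6242184 at 78209 bp, with 1.85-fold enrichment. That region still had a relaxed peak in all 3 ChCUC1:V libraries, enriched 2.02-, 1.72- and 1.70-fold in replicates 1, 2 and 3, against 1.79 and 2.42 in Ox replicates 1 and 3 and no peak in Ox replicate 2.

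**Figure D2:**
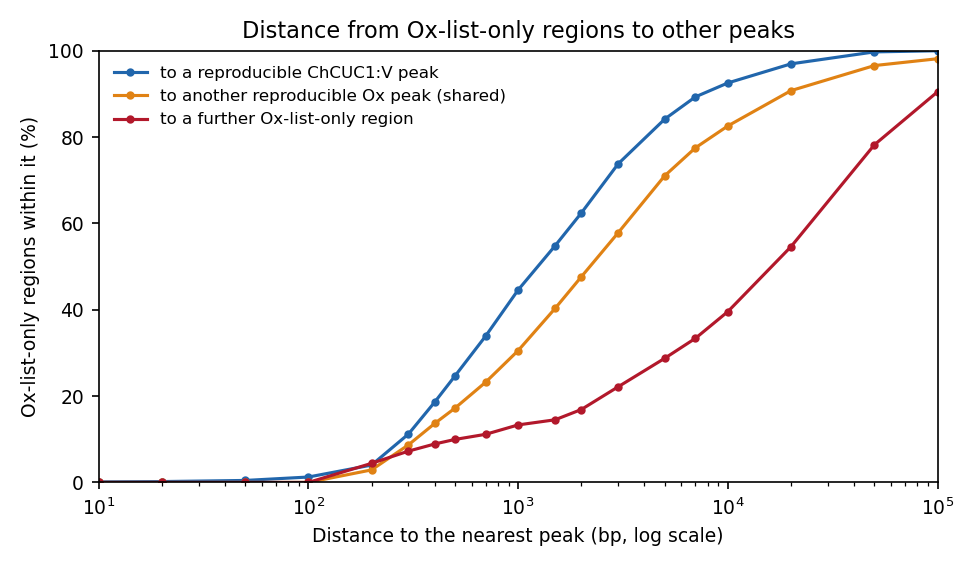
Cumulative share of the 1516 Ox-list-only regions (y axis, percent) that lie within a given distance (x axis, bp, log scale) of the nearest reproducible ChCUC1:V peak in blue, other reproducible Ox peak in orange and further Ox-list-only region in red. Within 1 kb lie 44.6%, 30.5% and 13.3% of the regions. The sets of peaks differ in size, and a larger set favours shorter distances.

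All 8 chromosomes held Ox-list-only regions, between 157 on Chr8 and 222 on Chr5. Per Mb up to the last peak, Chr5 had the most with 10.3 and Chr1 the fewest with 6.69. The other Ox peaks were also densest on Chr5, with 60.9 per Mb, but sparsest on Chr8, with 34.8. Ox-list-only regions accordingly made up 17.9% of the Ox list on Chr8 and 13.4% to 15.3% on the other 7 chromosomes. Median width ran from 613.5 bp on Chr4 to 837 bp on Chr8 and median fold from 2.26 on Chr2 to 2.33 on Chr5. Along the chromosome the regions gathered in the middle. With each chromosome cut into 10 equal stretches, stretches 3 to 7 held 77.3% of the Ox-list-only regions, 76.4% of the other Ox peaks and 59.5% of the ChCUC1:V peaks that share no base with an Ox peak. The outermost stretches held 3.23% and 2.37% of the Ox-list-only regions.

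On the scale of 500 kb, 253 of 370 bins held an Ox-list-only region and 117 held none. The 77 bins richest in other Ox peaks, with 46 or more each, held 790 of the regions (52.1%) and, by their choice, 56.7% of the other Ox peaks. The bin with the most lay on Chr5 from 7500001 to 8000000. It held 25 Ox-list-only regions beside 86 other Ox peaks and 83 ChCUC1:V peaks. These 25 were 273 to 2351 bp wide (median 467 bp), with folds of 1.38 to 2.75 and distances of 244 to 7302 bp to the nearest ChCUC1:V peak. A relaxed peak in all 3 Ox libraries was present at 13 of them and in all 3 ChCUC1:V libraries at 8. The next bins lay on Chr1 from 15000001 to 15500000 with 22 regions and on Chr4 from 9000001 to 9500000 with 20.

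In single libraries the regions were found more often in Ox than in ChCUC1:V plants, as the choice of the regions implies. With all relaxed peaks, ChCUC1:V replicates 1, 2 and 3 met 85.6%, 62.5% and 55.5% of the 1516 regions, against 88.4%, 83.0% and 95.5% for Ox replicates 1, 2 and 3. The genotypes overlapped, because ChCUC1:V replicate 1, with the longest list, stood above Ox replicate 2. With 21353 peaks from each library the shares were 36.7%, 50.9% and 55.5% in ChCUC1:V replicates 1, 2 and 3. In Ox replicates 1, 2 and 3 they were 79.0%, 61.2% and 73.4%, so that the lowest Ox library stood above the highest ChCUC1:V library. The ChCUC1:V mean was 47.7% ± 9.83 and the Ox mean 71.2% ± 9.10 (SD, n = 3 each), a difference of −23.5 percentage points. At the other Ox peaks the ChCUC1:V mean was 93.0% ± 6.33 and the Ox mean 89.6% ± 6.42 (SD, n = 3 each). Names of the lists carry a run number without saying what kind of run is meant. The 1 run that held both genotypes had ChCUC1:V replicates 1 and 2 and Ox replicates 2 and 3. Within it the mean at Ox-list-only regions was 43.8% in ChCUC1:V and 67.3% in Ox (n = 2 each), again a difference of −23.5 points.

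**Figure D3:**
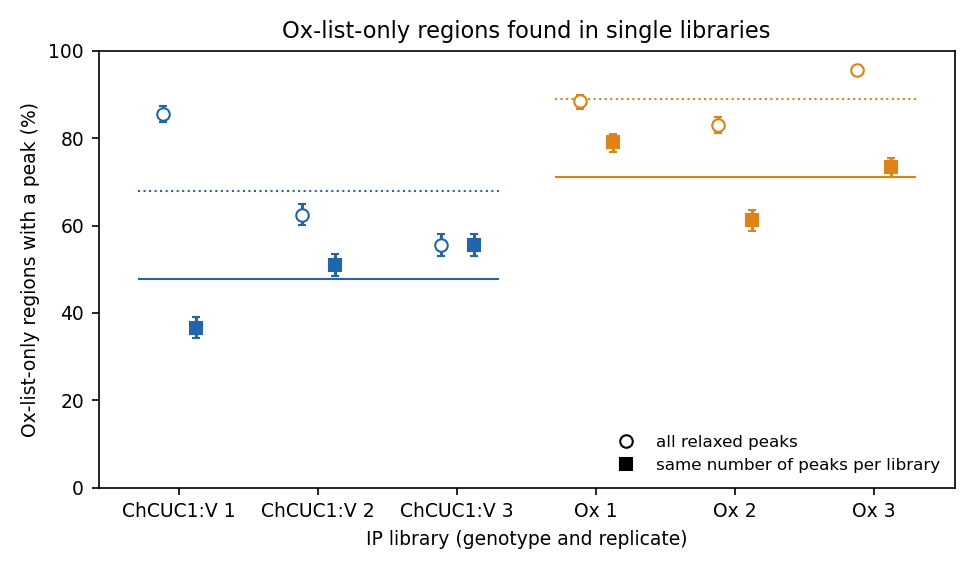
Share of the 1516 Ox-list-only regions with a peak (y axis, percent) in each IP library (x axis), with all relaxed peaks as open circles and dotted genotype means, and with 21353 peaks per library as filled squares and solid genotype means; bars are Wilson 95% intervals. With equal numbers of peaks the 3 ChCUC1:V libraries lie between 36.7% and 55.5% and the 3 Ox libraries between 61.2% and 79.0%.

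Most regions were seen in all Ox libraries and in at least 1 of the ChCUC1:V libraries. A relaxed peak in all 3 ChCUC1:V libraries was present at 658 regions (43.4%), where 87.3% of all Ox peaks on the chromosomes had one. A relaxed peak in all 3 Ox libraries was present at 1106 (73.0%), where 91.9% of all Ox peaks had one. The largest single pattern was a peak in all 6 libraries, with 579 regions (38.2%), against 83.6% of all Ox peaks. The rule used the contrast between the lists, so the lower shares among Ox-list-only regions are not read as a result. With 21353 peaks per library the ChCUC1:V libraries had 223 regions in common. No share over all Ox peaks is at hand for this count or for the counts that follow. They are description only. The next patterns lacked ChCUC1:V replicate 3 alone (170 regions), ChCUC1:V replicates 2 and 3 (161 regions) and ChCUC1:V replicate 2 alone (79 regions). Of the 372 regions found in a single ChCUC1:V library, 306 were found in replicate 1.

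**Figure D4:**
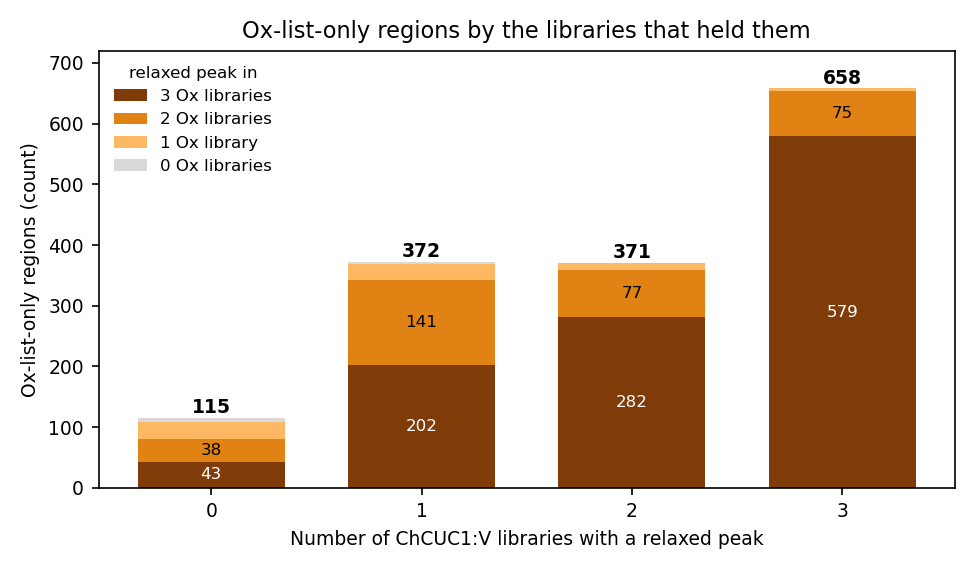
Number of Ox-list-only regions (y axis) by how many ChCUC1:V libraries had a relaxed peak there (x axis), divided by the number of Ox libraries that had one (colours). The bars total 115, 372, 371 and 658 regions, and 579 regions had a peak in all 6 libraries.

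With all relaxed peaks, support in ChCUC1:V libraries went with width rather than with strength. Regions with a relaxed peak in 0, 1, 2 and 3 ChCUC1:V libraries had median widths of 383, 424, 714 and 1124 bp. Their median folds in the Ox list were 2.20, 2.34, 2.29 and 2.28. The order by width was not particular to ChCUC1:V support. Regions with a relaxed peak in 0, 1, 2 and 3 Ox libraries had median widths of 281, 313, 422 and 893 bp. Median folds rose with Ox support as well, at 1.59, 2.02, 2.28 and 2.30. Among the 488 regions of up to 500 bp, ChCUC1:V replicates 1, 2 and 3 met 77.7%, 29.3% and 22.1%, against 67.0%, 69.3% and 88.7% in Ox replicates 1, 2 and 3. Among the 113 regions over 2000 bp every library met at least 97.3% with all its peaks. The gap between ChCUC1:V replicate 1 and the other ChCUC1:V replicates was widest among the narrow regions. Over 500 and up to 1000 bp the ChCUC1:V shares were 86.1%, 66.0% and 55.4%, and over 1000 and up to 2000 bp they were 91.4%, 88.2% and 84.4%. Replicates 2 and 3 had no relaxed peaks narrower than 410 and 525 bp, and the part of this minimum width in their shares was not tested. With 21353 peaks per library replicate 1 was highest only in the narrowest class, where the ChCUC1:V shares were 41.2%, 21.7% and 22.1%, and lowest in the next, with 30.9%, 54.4% and 55.4%. Its shares did not follow width in order at that list length, with 33.0% over 1000 and up to 2000 bp and 56.6% over 2000 bp. In this widest class replicates 2 and 3 of ChCUC1:V then met 89.4% and 99.1%, against 99.1%, 80.5% and 91.2% in Ox replicates 1, 2 and 3. With all relaxed peaks, other Ox peaks of up to 500 bp were met by ChCUC1:V replicates 1, 2 and 3 in 92.6%, 85.4% and 74.8% of cases. Those over 2000 bp were met in 100%, 99.97% and 99.97%, so shares were higher for wide peaks there too.

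Regions recovered in every Ox library and in no ChCUC1:V library numbered 43 (2.84%), against 0.46% of all Ox peaks. Whatever the Ox libraries showed, 115 regions (7.59%) had no relaxed ChCUC1:V peak, against 1.2% of all Ox peaks. Both counts follow the contrast that chose the regions. The count of 43 depended on ChCUC1:V replicate 1, since it was 204 without that library. It was 66 without ChCUC1:V replicate 3 and 79 within the shared run. In the median, the 43 were 542 bp wide, enriched 2.29-fold and 1504 bp from the nearest ChCUC1:V peak, so they matched all 1516 in fold but were narrower. The highest by fold lay on Chr8 from 7524836 to 7526067 (2.52-fold, −log10 p of 17.3), with folds of 2.17, 2.63 and 2.70 in Ox replicates 1, 2 and 3. The second, on Chr3 from 14627661 to 14628040 (2.51-fold), had 2.43 and 2.35 in Ox replicates 1 and 3, and its peak in replicate 2 had a −log10 p of 2.81. Over the 5 strongest of the 43, the −log10 p in single Ox libraries ran from 2.81 to 10.1. The remaining 3 lay on Chr7 from 7669173 to 7670069 (2.43-fold), Chr5 from 11168234 to 11168895 (2.42-fold) and Chr8 from 10107478 to 10108000 (2.42-fold). In Ox replicates 1, 2 and 3 the Chr7 region was enriched 2.30-, 2.63- and 2.55-fold, the Chr5 region 2.09-, 2.64- and 1.88-fold and the second Chr8 region 2.48-, 3.06- and 2.23-fold. Absence from a relaxed list means that no peak was called at the p limit of 0.01, and depth is unknown because the lists hold no read counts.

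A small set of 12 regions (0.792%) had no relaxed peak in any Ox library although they stood in the Ox list, against 0.254% of all Ox peaks. None of the 12 was wider than 500 bp, and in the median they were 281 bp wide and enriched 1.59-fold. The highest by fold lay on Chr5 from 12300248 to 12300482 (1.94-fold) and had no relaxed peak in any of the 6 libraries. Another on Chr5 from 11666206 to 11666525 (1.85-fold) had peaks in ChCUC1:V replicates 1 and 3, with folds of 2.29 and 1.83. A region on Chr7 from 2968170 to 2968405 (1.67-fold) had one in ChCUC1:V replicate 2 (1.67-fold). The start and end of an Ox-list-only region were in no case (0 of 1516) both those of a relaxed peak, and how the reproducible intervals were drawn is not stated.

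Where a library had a peak, its rank showed how strong the region was among all peaks of that library. Ranks run to 100 for the peak with the highest −log10 p, and where several peaks met a region the strongest was used. At Ox-list-only regions the median rank was 50.5, 33.6 and 32.9 in ChCUC1:V replicates 1, 2 and 3, against 63.3, 65.9 and 69.3 in Ox replicates 1, 2 and 3. A percent rank moves with the length of the list, so positions were also counted from the top. The median position was 24090, 16648 and 14336 in ChCUC1:V replicates 1, 2 and 3, against 11362, 13027 and 12747 in Ox replicates 1, 2 and 3. By this count ChCUC1:V replicate 3, at 32.9 the lowest by percent, lay near the Ox libraries, and replicate 1 lay farthest from them. A position cannot exceed the length of its list, which was shortest in ChCUC1:V replicate 3 and longest in ChCUC1:V replicate 1. Only regions with a peak have a position, namely 1298, 948 and 842 in ChCUC1:V replicates 1, 2 and 3. In Ox replicates 1, 2 and 3 they numbered 1340, 1259 and 1448. The places of the ChCUC1:V libraries by this count therefore cannot be separated from list length. At the other Ox peaks the median ranks were 83.9, 77.9 and 77.0 in the ChCUC1:V libraries, against 81.8, 78.8 and 83.0 in the Ox libraries. Among the 579 Ox-list-only regions with a peak in all 6 libraries, 151 (26.1%) ranked lower in every ChCUC1:V than in every Ox library, against 8.85% of all Ox peaks with 6 such peaks. Counted from the top of each list they were 61 (10.5%), against 4.53%, so that the number depends on the scale of the rank. A single region ranked higher in every ChCUC1:V library, against 6.39%. It lay on Chr1 from 13858898 to 13863947, with ranks of 88.7, 87.2 and 87.6 in ChCUC1:V replicates 1, 2 and 3, against 85.1, 76.8 and 83.8 in Ox replicates 1, 2 and 3. Counted from the top, 2 other regions stood higher in every ChCUC1:V library, against 8.63% of all such Ox peaks, on Chr7 from 10349264 to 10353129 and on Chr3 from 20427924 to 20428592. All 3 were singled out after their values were seen, and the choice of the regions favours lower ranks in ChCUC1:V libraries on either scale.

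**Figure D5:**
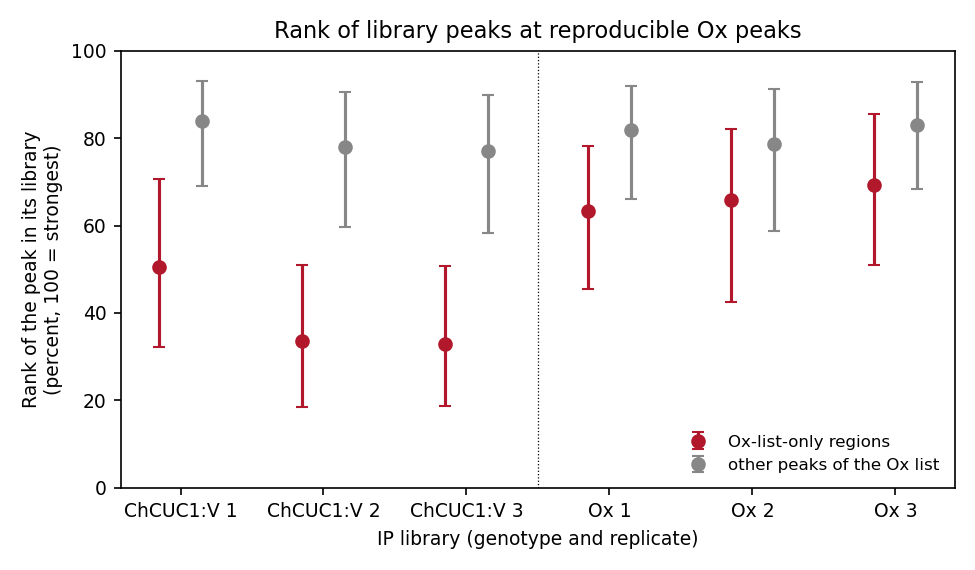
Rank of the library peak (y axis, percent, 100 for the highest −log10 p in that library) at Ox-list-only regions in red and at other Ox peaks on the chromosomes in grey, for each IP library (x axis); points are medians and bars run from the 25th to the 75th percentile of the regions with a peak in that library. The lists differ in length, which moves percent ranks. Medians at Ox-list-only regions are 50.5, 33.6 and 32.9 in the ChCUC1:V libraries and 63.3 to 69.3 in the Ox libraries.

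Summits in single libraries lay close to the summit of the region. That summit comes from the Ox list, which was made with the Ox libraries, so shorter distances in those libraries are favoured. The median distance was 90, 155 and 240.5 bp in ChCUC1:V replicates 1, 2 and 3, against 74, 65 and 44 bp in Ox replicates 1, 2 and 3. The order of these distances in the ChCUC1:V libraries was that of peak width, since the medians of the peaks meeting the regions were 341, 760.5 and 1024.5 bp. In Ox replicates 1, 2 and 3 those peaks had medians of 697, 327 and 464 bp, and no such order was seen. A summit within 250 bp was found for 75.5%, 64.7% and 51.0% of the peaks in ChCUC1:V replicates 1, 2 and 3, against 82.4%, 79.2% and 84.1% in Ox replicates 1, 2 and 3. Neither the longer distances in ChCUC1:V libraries nor their order was particular to these regions. At the other Ox peaks the median distance was 136, 165 and 237 bp in the ChCUC1:V replicates, against 93, 112 and 73 bp in the Ox replicates. Some regions were met by a library peak that reached on into a reproducible ChCUC1:V peak nearby. There were 0, 22 and 80 such regions in ChCUC1:V replicates 1, 2 and 3, against 32, 1 and 9 in Ox replicates 1, 2 and 3. Replicate 3 of ChCUC1:V, with the widest peaks, stood highest.

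The strongest Ox-list-only region of each chromosome was either broad or narrow. Those on Chr1 and Chr4 were broad, and strong peaks met them in every library. The Chr1 region, from 18602464 to 18609964, was the widest of all at 7501 bp. Its relaxed peaks were enriched 3.09-, 3.05- and 3.22-fold in ChCUC1:V replicates 1, 2 and 3, against 3.12, 3.23 and 3.12 in Ox replicates 1, 2 and 3. Its ranks were 97.2, 98.4 and 99.2 in the ChCUC1:V libraries, against 99.6, 93.2 and 98.8 in the Ox libraries. Some of the strongest peaks of both genotypes thus met it, although the nearest reproducible ChCUC1:V peak lay 558 bp away. Summits of these peaks lay 3151, 116 and 3911 bp from that of the region in the ChCUC1:V replicates, against 1754, 1874 and 60 bp in the Ox replicates. The Chr4 region, from 13662780 to 13668090 (5311 bp), had folds of 3.49, 3.03 and 2.89 in the ChCUC1:V replicates, against 3.03, 3.61 and 3.08 in the Ox replicates. Its ranks were above 98 in all 6 libraries. The summit distances there were 656, 3265 and 3360 bp in the ChCUC1:V replicates, against 56, 864 and 2548 bp in the Ox replicates. These distances have no side, so the longer ones do not show whether a summit lay inside its region.

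The other 6 were between 316 and 464 bp wide. On Chr2, from 10695655 to 10696118, the folds were 2.52, 1.69 and 1.65 in ChCUC1:V replicates 1, 2 and 3, against 2.43, 3.88 and 2.74 in Ox replicates 1, 2 and 3, and the genotypes overlapped through ChCUC1:V replicate 1. On Chr3, from 15979607 to 15979958, they were 3.23 and 1.73 in ChCUC1:V replicates 1 and 2, against 3.88 and 3.06 in Ox replicates 2 and 3. This region, the strongest of all 1516 by fold, was missing from 1 library of each genotype. On Chr5, from 10269554 to 10269940, they were 2.46 and 2.44 in ChCUC1:V replicates 1 and 3, against 2.75, 2.30 and 3.26 in Ox replicates 1, 2 and 3. The replicate 3 peak there had its summit 2454 bp from that of the region and so outside it. On Chr6, from 6355890 to 6356205, the folds were 2.46 and 1.76 in ChCUC1:V replicates 1 and 2, against 2.38 and 3.74 in Ox replicates 1 and 2 and just above 3 in Ox replicate 3. The regions on Chr7, from 4913437 to 4913803, and on Chr8, from 8271432 to 8271790, had a ChCUC1:V peak in replicate 1 only, with folds of 2.80 and 2.61. In Ox replicates 2 and 3 the Chr7 region had folds of 3.31 and 2.94. The Chr8 region had 2.01, 4.22 and 2.66 in Ox replicates 1, 2 and 3. All of these narrow peaks were thus seen in ChCUC1:V replicate 1, which had the narrowest and most numerous peaks of the ChCUC1:V libraries, and in Ox replicates 2 and 3.

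After the Chr1, Chr4 and Chr2 regions, the strongest with a peak in all 6 libraries lay on Chr7 from 8114464 to 8114939 (2.85-fold) and on Chr6 from 11933119 to 11934347 (2.83-fold). Enrichment at the Chr7 region was 2.43-, 1.66- and 1.73-fold in ChCUC1:V replicates 1, 2 and 3, against 2.48-, 3.65- and 2.50-fold in Ox replicates 1, 2 and 3. The Chr6 region had 1.91, 1.69 and 1.76 in the ChCUC1:V replicates, against 2.62, 2.42 and 2.53 in the Ox replicates. Its summits lay 3, 10 and 182 bp from that of the region in the ChCUC1:V replicates, against 123, 316 and 49 bp in the Ox replicates. Both regions were chosen by fold in the Ox list among regions outside the ChCUC1:V list, which favours higher folds in Ox libraries. Folds of single libraries come from separate peak calls, and no scaling between libraries was made.

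The 5 widest regions were all present in all 6 libraries, but often in pieces. After those on Chr1 and Chr4 they lay on Chr1 from 13858898 to 13863947 (5050 bp), on Chr7 from 1400762 to 1405441 (4680 bp) and on Chr1 from 15419697 to 15424324 (4628 bp). The Chr7 region was met by 3, 3 and 1 peaks in ChCUC1:V replicates 1, 2 and 3, against 2, 6 and 3 in Ox replicates 1, 2 and 3. Its folds were 2.92, 1.97 and 1.85 in the ChCUC1:V replicates, against 2.25, 2.81 and 2.22 in the Ox replicates, which overlapped. The 5050 bp region on Chr1 had folds of 3.01, 2.51 and 2.39 in the ChCUC1:V replicates, against 2.49, 2.96 and 2.65 in the Ox replicates, which overlapped as well. The narrower Chr1 region had folds of 2.67, 2.04 and 1.78 in the ChCUC1:V replicates, against 2.46, 3.05 and 2.36 in the Ox replicates. Over all Ox-list-only regions, more than 1 library peak met 20.1%, 5.15% and 3.63% in ChCUC1:V replicates 1, 2 and 3, against 8.44%, 17.3% and 17.5% in Ox replicates 1, 2 and 3. The other Ox peaks, which are wider, were met in pieces more often, with 42.1%, 15.6% and 9.36% in the ChCUC1:V replicates, against 19.5%, 48.3% and 38.7% in the Ox replicates.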

How the data were processed

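Bowtie, MACS2 and bedtools are the tools in the submitters' processing notes, which state no version. No genome build was stated in the sources used here. All coordinates are those of the deposited lists, counted from 1. Per the file names, the authors removed duplicates and called each IP library against pooled controls. The score that the authors deposited is the scaled IDR in the reproducible lists and was not used from the relaxed lists. The fold the authors deposited is a linear ratio of IP over control, and the −log10 p of each peak and the summit offset are also deposited values.

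An overlap was 1 shared bp or more. A region's value in a library is that of the overlapping peak with the highest −log10 p. Wilson 95% intervals cover counting error only and not the spread between libraries, and neighbouring peaks are not independent. Overlap code (Python 3.11.15, numpy 2.4.6, pandas 2.3.3, scipy 1.17.1) was tested on simulated intervals. The regions, classes and comparisons were chosen with earlier results of these data known. Regions are named by rule: the highest fold per chromosome, the 5 highest in all Ox and no ChCUC1:V library and in all 6 libraries, the 5 widest, the 3 nearest to the line on each side, the 3 highest without an Ox peak, and the fullest 500 kb bin. No gene or sequence is given, since the gene table at hand is of another assembly and no genome was used. Alternatives covered the overlap rule, IDR threshold, scaffolds, relaxed peaks used, each library left out, the shared run and, added after seeing the data, ranks counted from the top of each list. The 6 input libraries were not analysed here, as only IP libraries carry a list.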

Additional observations from a re-analysis of the deposited data

How the results depend on the processing

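No paired analysis was possible because the results come from no test and the equal replicate numbers have no stated pairing. Of 51 alternatives to 7 results, 35 kept a count within 1.5 times or a value within its spread. For the median width the range used was 692 to 762 bp, not the percentiles of the single widths. Only the difference in library support has a direction, since the other results are counts or widths. It stayed negative throughout, which the choice of the regions favours, so its sign is no support. The number of regions was 4702 when only a ChCUC1:V summit within 250 bp of the Ox summit excluded a peak, and 473 at an IDR of 0.01 in both lists, where fewer peaks enter. Median width was 771 bp when 50% of a peak had to be covered, 1414 bp with the summit rule and 960 bp at the stricter IDR. The summit rule gave a difference in library support of −5.84 points, and without single libraries it ranged from −28.5 to −18.0 points. Regions in all ChCUC1:V libraries numbered 3713 with the summit rule, 319 at the stricter IDR, 223 with lists of equal length and 305 when a peak had to cover 50% of the region, and 695 to 876 without single libraries. Regions in all Ox and no ChCUC1:V library numbered 3 at the stricter IDR, 79 within the shared run, and 49 to 204 without single libraries, with 204 reached without ChCUC1:V replicate 1 and 66 without replicate 3. Fewer libraries make that criterion easier to meet. A rule chosen after seeing the data, that an Ox summit inside a ChCUC1:V peak excludes, gave 1565 regions with a median width of 733 bp. Ranks counted from the top of each list, also chosen after seeing the data, gave 61 regions lower and 2 higher in every ChCUC1:V library, against 151 and 1 by percent rank. Depth is unknown, so a missing relaxed peak cannot be told from low coverage.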

Other observations

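Fold values recurred in both sets of Ox peaks. The 1516 regions took 768 distinct folds and the 8705 other Ox peaks took 3206. The commonest fold among the regions was 2.36, at 36 of them (2.37%), with a −log10 p of 14.2 in each case. It was found at 46 of the other Ox peaks (0.528%). That value was picked as the commonest among the regions, which favours the higher share there. On average the peaks of ChCUC1:V replicates 1, 2 and 3 covered 49.7%, 46.3% and 42.5% of the bases of an Ox-list-only region, counting regions without a peak as 0, against 75.1%, 45.2% and 70.0% in Ox replicates 1, 2 and 3. By this measure Ox replicate 2 stood below ChCUC1:V replicates 1 and 2 and above ChCUC1:V replicate 3.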
